A study of Mus musculus with 4 samples.

Results

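The genes described here are the developmental homeobox and Pax genes that lie outside the Hox clusters. They were chosen by a rule on names alone, but with earlier results of these data known. The rule took protein-coding genes of chromosomes 1 to 19 in GENCODE vM1 (mouse build mm9) by their symbol. The symbol had to begin with Pax, Lhx, Dlx, Irx, Nkx, Msx, Otx, Emx or En followed by a number, or with the symbol of the sine oculis homeobox family in the same way. This gave 58 genes of 21418. By family they are 14 Nkx, 9 Pax, 8 Lhx, 6 Dlx, 6 Irx, 3 Msx, 2 Otx, 2 Emx and 2 En genes and 6 genes of the sine oculis homeobox family.

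The study mapped acetylation of histone H3 at lysine 9 (H3K9ac) and at lysine 14 (H3K14ac) in untreated mouse embryonic stem (mES) cells by chromatin immunoprecipitation and sequencing (ChIP-seq). The 4 libraries were H3K9ac with the rabbit polyclonal antibody ab4441, H3K14ac with the mouse monoclonal antibody 13HH3-1A5, H3K14ac with another mouse monoclonal antibody, 7G8, and input DNA without antibody. The labels name the E14 line of strain 129P2/OlaHsd for every library, whereas the methods describe wild type cells taken from blastocysts, grown on feeder cells and then passaged without feeders. There was 1 library per antibody, so no value below has a replicate and no test between libraries or conditions was possible, and the intervals given cover counting error only.

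These genes encode transcription factors that bind DNA through a homeodomain, a paired domain or both, and that set regional and cell type identity in the embryo. In mES cells most of them are silent or nearly so, and many of their promoters are known as bivalent, which means that they carry H3K4me3 together with the Polycomb mark H3K27me3. Many of their promoters lie in CpG islands. Acetylation of H3K9 and H3K14 is usually found at active promoters.

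Promoter sequences of 6 of the genes are shown because these genes stand at the ends of the ranges described below. All these ends are of ratios, not of tag density. Otx2 had the highest ratio of H3K9ac over input, and Pax4 and Lhx3 the lowest. Six5 had the lowest ratio of H3K14ac to H3K9ac. Emx2 had the highest ratio of 13HH3-1A5 over input, and Nkx6-1 the lowest ratio of 7G8 to 13HH3-1A5. Each line gives the 200 bases upstream of the transcription start site (TSS) on the gene's own strand, read from the genome build NCBIM37 (mm9), with CpG dinucleotides in capitals. The positions are chr14:49287320-49287519 (minus strand) for Otx2, chr7:19679693-19679892 (plus strand) for Six5, chr19:59532980-59533179 (plus strand) for Emx2, chr5:102094246-102094445 (minus strand) for Nkx6-1, chr6:28399354-28399553 (minus strand) for Pax4 and chr2:26063770-26063969 (minus strand) for Lhx3.
Otx2: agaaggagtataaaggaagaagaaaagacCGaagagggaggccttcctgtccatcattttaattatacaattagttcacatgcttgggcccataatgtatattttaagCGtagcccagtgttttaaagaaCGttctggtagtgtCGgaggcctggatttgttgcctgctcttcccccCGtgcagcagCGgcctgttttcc
Six5: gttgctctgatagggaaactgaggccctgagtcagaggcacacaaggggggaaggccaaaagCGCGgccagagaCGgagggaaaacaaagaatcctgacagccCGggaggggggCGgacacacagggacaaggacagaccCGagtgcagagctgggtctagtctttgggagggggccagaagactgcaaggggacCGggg
Emx2: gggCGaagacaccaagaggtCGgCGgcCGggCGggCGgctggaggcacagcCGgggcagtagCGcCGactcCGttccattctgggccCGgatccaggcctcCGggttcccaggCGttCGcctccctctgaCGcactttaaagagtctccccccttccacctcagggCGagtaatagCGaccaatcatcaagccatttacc
Nkx6-1: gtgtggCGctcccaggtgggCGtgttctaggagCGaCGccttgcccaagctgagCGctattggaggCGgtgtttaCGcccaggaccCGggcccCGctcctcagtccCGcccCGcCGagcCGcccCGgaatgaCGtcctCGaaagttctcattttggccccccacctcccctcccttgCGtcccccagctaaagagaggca
Pax4: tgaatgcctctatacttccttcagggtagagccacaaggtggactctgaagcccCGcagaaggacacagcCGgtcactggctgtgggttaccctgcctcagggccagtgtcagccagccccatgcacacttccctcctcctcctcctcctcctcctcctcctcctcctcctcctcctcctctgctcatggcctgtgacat
Lhx3: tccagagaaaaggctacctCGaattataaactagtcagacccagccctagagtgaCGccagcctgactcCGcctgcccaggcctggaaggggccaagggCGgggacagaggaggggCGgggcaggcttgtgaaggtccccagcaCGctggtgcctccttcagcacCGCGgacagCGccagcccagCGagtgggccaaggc
These stretches held 17 CpGs each for Emx2 and Nkx6-1, 10 for Lhx3, 7 for Six5, 6 for Otx2 and 2 for Pax4. The gene with the highest ratio of H3K9ac over input was therefore not the one with the most CpGs just upstream of its TSS.

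Tags (mapped reads) were counted within 2 kb of each TSS and scaled to tags per 10000000 tags of the library. The libraries held 19313142 tags (input) to 23837354 tags (7G8) after repeats of a position and strand were counted once. At the 58 genes the density of H3K9ac had a median of 55.0 and ran from 16.4 at Pax4 to 107 at Six5. That of 13HH3-1A5 had a median of 37.0 and ran from 16.2 at Lhx3 to 65.7 at Irx3. That of 7G8 had a median of 26.0 and ran from 8.39 at Lhx3 to 41.1 at Pax6. Input itself ran from 7.77 at Nkx2-6 to 36.8 at Nkx2-5, with a median of 21.7. Over all 21418 genes the medians were 52.2 in the H3K9ac library, 25.4 in that of 13HH3-1A5, 24.8 in that of 7G8 and 18.6 in input, so the homeobox and Pax genes stood above the median gene most for 13HH3-1A5. The 12 stem cell markers carried far more H3K9ac, with a median of 129. Of them 11 were at least 2-fold over input, beside 58.2% of all genes with at least 10 input tags. The 10 fibroblast markers stand for feeder cells. For H3K9ac 2 of them were at least 2-fold over input, Fn1 at 2.37 and Col1a1 at 1.01 on the log2 scale. The 95% interval of this log2 ratio lay above 0 at 5 of the 10, beside 67.3% of all genes. For 13HH3-1A5 0 of the 10 were at least 2-fold over input, beside 16.6% of all genes. The part that feeder cells may have in the values was not tested.

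H3K9ac was above input at most of the genes, H3K14ac with 13HH3-1A5 at a smaller number, and H3K14ac with 7G8 at few. A gene was called when its density was at least 2-fold over input (log2 of at least 1) or at least 2-fold below it (log2 of at most -1). All 58 genes had at least 10 input tags and were kept. H3K9ac was called over input at 40 of the 58 (69.0%), beside 58.2% of the 20482 genes of chromosomes 1 to 19 with at least 10 input tags. 13HH3-1A5 was called at 15 (25.9%), beside 16.6% of all genes. 7G8 was called at 3 (5.17%), which were Otx2, Irx5 and Nkx2-6, beside 17.0% of all genes. In the other direction, 0 genes were called below input for H3K9ac (4.65% of all genes) and 0 for 13HH3-1A5 (2.54% of all genes). For 7G8, Lhx3 and Nkx6-3 were called below input, 2 of 58 beside 1.46% of all genes.

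The medians showed the same order. The median log2 ratio over input of the 58 genes was 1.18 in the H3K9ac library, 0.66 in that of 13HH3-1A5 and 0.23 in that of 7G8. Over all genes tested it was 1.34, 0.36 and 0.36, respectively. Thus the median homeobox or Pax gene lay below the median gene for H3K9ac and for 7G8, and above it for 13HH3-1A5. How precisely a single gene was measured depends on 15 to 71 input tags, and the 95% interval of a gene's log2 ratio was typically 1.05 wide in the H3K9ac library, 1.13 in that of 13HH3-1A5 and 1.19 in that of 7G8.

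**Figure D1:**
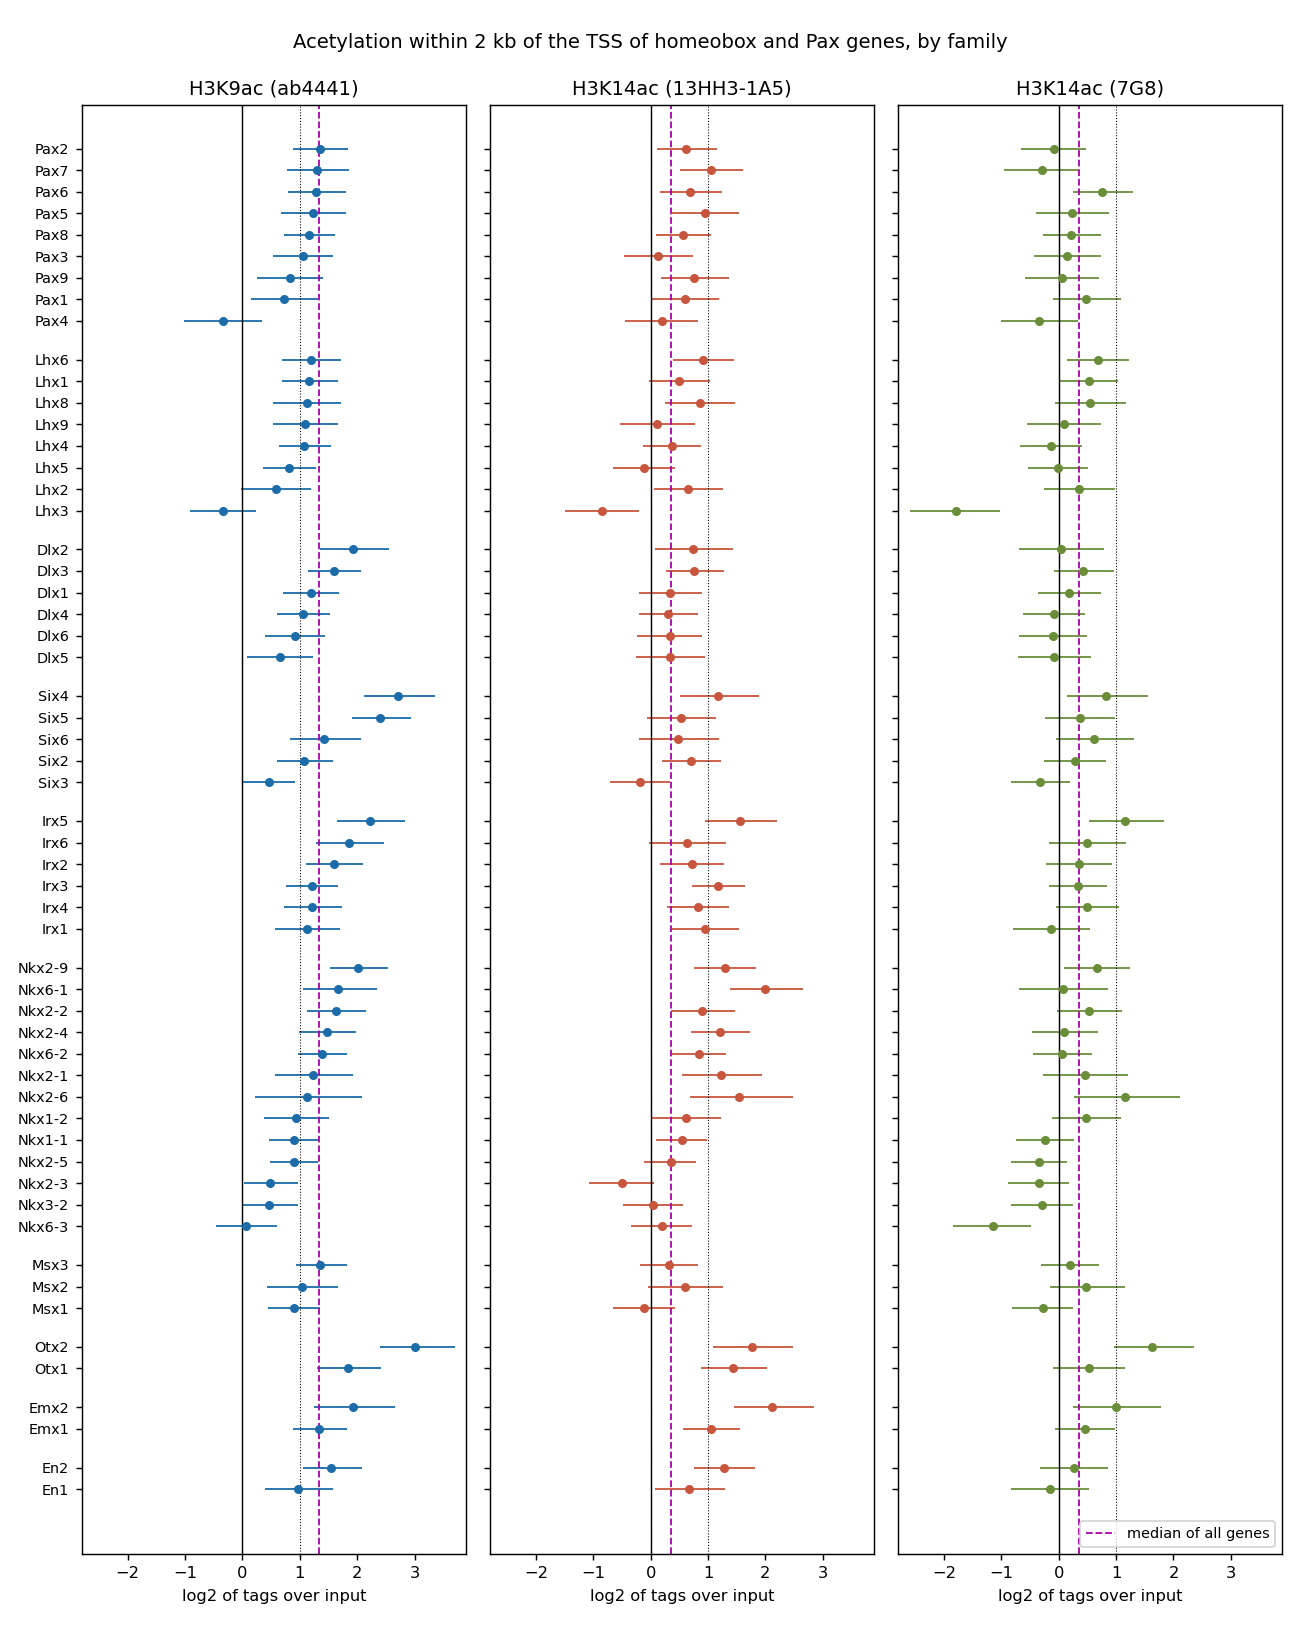
Log2 ratio of tags over input within 2 kb of the TSS for the homeobox and Pax genes (rows, ordered within a family by H3K9ac) in the 3 ChIP libraries (panels). Points are single libraries, bars are exact 95% intervals of counting error, the dotted line marks log2 of 1, and the dashed line is the median of all genes. Most H3K9ac points lie right of 0, whereas most 7G8 intervals reach 0.

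When the interval rather than the fold was used, H3K9ac lay above input at 53 of the 58 genes (67.3% of all genes), 13HH3-1A5 at 35 (34.6% of all genes) and 7G8 at 10 (33.8% of all genes). The combination of H3K9ac and 13HH3-1A5 above input, with 7G8 not above it, was found at 25 of the 58 genes (43.1%) and at 9.02% of all genes. All 3 libraries lay above input at 9 genes (15.5%, beside 23.6% of all genes), among them Lhx6, Pax6, Irx5, Nkx2-9, Six4, Otx2, Nkx2-6 and Emx2. H3K9ac alone was above input at 18 genes (31.0%, beside 25.8% of all genes). These 18 included 4 of the 6 Dlx genes (Dlx1, Dlx4, Dlx5 and Dlx6) and 3 of the 3 Msx genes. All these classes are for the full window. In the 2 kb downstream of the TSS alone, 13HH3-1A5 was above input at 33 of the 57 genes tested there (57.9%, beside 30.7% of all genes). The 33 included Dlx4, Dlx5, Msx2, Msx3, Six5, Six6 and Nkx2-5, which are among these 18. In 1 gene, Lhx1, H3K9ac and 7G8 were above input without 13HH3-1A5 (beside 8.83% of all genes). In 1 gene, Lhx2, 13HH3-1A5 was above input alone (beside 1.58% of all genes). The classes of these genes turned on intervals that barely held 0. 13HH3-1A5 at Lhx1 was 0.50 (-0.02 to 1.04). At Lhx2, H3K9ac was 0.58 (-0.02 to 1.19), beside 0.65 (0.06 to 1.27) for 13HH3-1A5. In 4 genes, Lhx3, Nkx3-2, Pax4 and Nkx6-3, no library lay above input, beside 29.7% of all genes.

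The counts of called genes by family that follow stand beside 58.2% of all genes for H3K9ac and 16.6% for 13HH3-1A5, and most families are too small for such a share to be precise. The genes with the highest ratio of H3K9ac over input were Otx2, Six4 and Six5. Otx2 encodes a factor needed for the forebrain and midbrain that is also transcribed in pluripotent cells, and its TSS lies on chromosome 14 at 49287319. It held 223 tags of H3K9ac, 87 of 13HH3-1A5, 88 of 7G8 and 23 of input. Its log2 ratios over input were 3.01 (2.39 to 3.70) in the H3K9ac library, 1.76 (1.08 to 2.49) in that of 13HH3-1A5 and 1.63 (0.96 to 2.36) in that of 7G8, and it was the highest of the 58 genes for H3K9ac and for 7G8. Its relative Otx1, which acts in the cortex and inner ear, held 150, 106, 62 and 35 tags in the same order. Otx1 reached 1.84 (1.30 to 2.41) in the H3K9ac library and 1.44 (0.87 to 2.03) in that of 13HH3-1A5, so both Otx genes were called for both marks, and 7G8 at Otx1 was 0.52 (-0.10 to 1.16).

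The sine oculis homeobox genes, which act in eye, muscle and kidney, held the widest range of H3K9ac among the families of more than 3 genes, from 0.46 at Six3 to 2.72 at Six4. Six4 (205 tags of H3K9ac, 66 of 13HH3-1A5, 57 of 7G8, 26 of input) reached 2.72 (2.12 to 3.36) for H3K9ac. Six5, which is active in many tissues, held 247, 63, 62 and 39 tags. Its H3K9ac was 2.40 (1.91 to 2.93), but 13HH3-1A5 was 0.53 (-0.07 to 1.14) and could not be told from input over the full window. In the 2 kb downstream of the TSS alone, the interval of 13HH3-1A5 at Six5 lay above 0. Six6, an eye and pituitary factor, was 1.43 (0.83 to 2.07) for H3K9ac, and its window also holds the TSS of 4930447C04Rik, 888 bp away, so the tags of these 2 genes cannot be told apart. Six2, which keeps kidney progenitors, was 1.08 (0.60 to 1.58). Six3, a forebrain and eye factor, was lowest in the ratio over input, although Six6 held fewer tags of H3K9ac (97). Six3 held 109 tags of H3K9ac, 65 of 13HH3-1A5, 65 of 7G8 and 66 of input. This gave 0.46 (0.01 to 0.92) in the H3K9ac library and -0.19 (-0.70 to 0.33) in that of 13HH3-1A5. The value of Six3 depended on the TSS used, since at the TSS shared by most of its transcripts, 7423 bp away, H3K9ac was 0.95 and 13HH3-1A5 was 0.92.

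**Figure D2:**
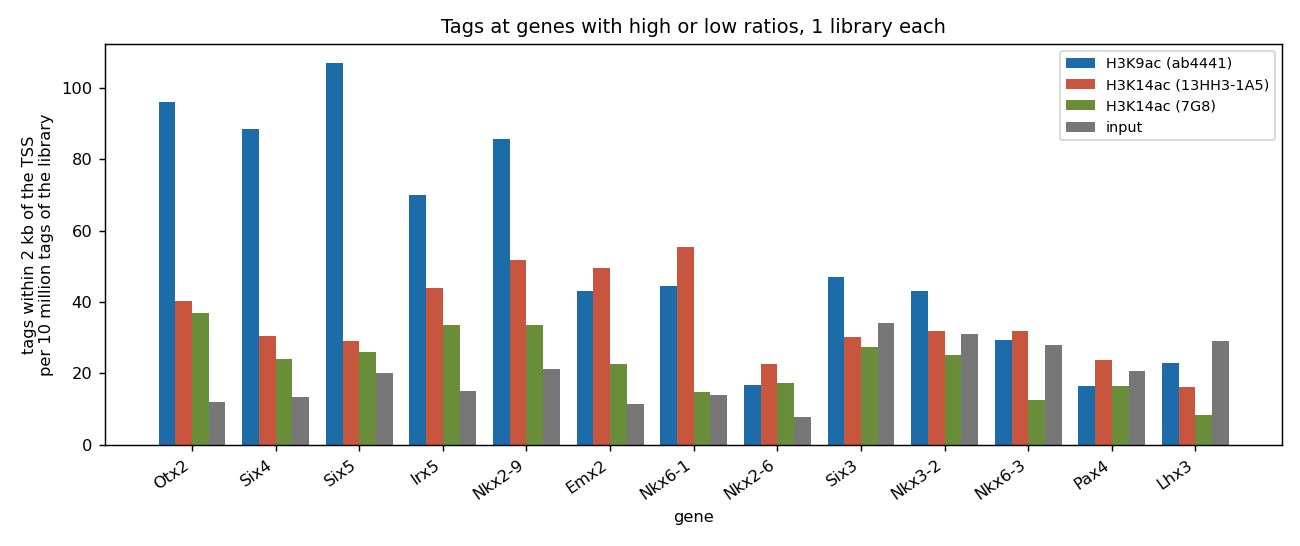
Tags within 2 kb of the TSS per 10000000 tags of the library (vertical axis) for genes that stand high or low among the 58, with 1 bar per library. H3K9ac exceeds the other libraries at Otx2, Six4, Six5, Irx5, Nkx2-9, Six3 and Nkx3-2, 13HH3-1A5 is the highest bar at Emx2, Nkx6-1, Nkx2-6, Nkx6-3 and Pax4, and at Lhx3 input is the highest bar.

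The Irx genes, Iroquois homeobox factors of neural, heart and limb patterning, were called for H3K9ac at 6 of 6, from 1.12 (0.56 to 1.70) at Irx1 to 2.22 (1.64 to 2.84) at Irx5. Irx5 held 162 tags of H3K9ac, 95 of 13HH3-1A5, 80 of 7G8 and 29 of input, and stood at 1.55 (0.94 to 2.20) in the 13HH3-1A5 library and 1.16 (0.53 to 1.83) in that of 7G8. It was thus high in each of the 3 libraries, but its window also holds the TSS of 4933436C20Rik, 1676 bp away. Irx3, with 155, 142, 87 and 56 tags, had 1.21 (0.76 to 1.67) in the H3K9ac library and 1.18 (0.72 to 1.65) in that of 13HH3-1A5. Irx6, with 135, 54, 54 and 31 tags, had 1.86 (1.29 to 2.47) in the H3K9ac library and 0.64 (-0.03 to 1.32) in that of 13HH3-1A5, so the gap between the marks was wider there than at Irx3. Irx2 and Irx4 had 1.59 and 1.21 for H3K9ac and 0.72 and 0.82 for 13HH3-1A5.

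The Emx and En genes pattern the cortex and the midbrain and hindbrain. Emx2 (TSS on chromosome 19 at 59533180) held 100 tags of H3K9ac, 107 of 13HH3-1A5, 54 of 7G8 and 22 of input. Its 13HH3-1A5 ratio of 2.12 (1.45 to 2.85) was the highest of the 58 genes. Its H3K9ac ratio was 1.92 (1.24 to 2.66) and its 7G8 ratio 0.99 (0.25 to 1.78). Emx1 held 158, 121, 88 and 52 tags, and was called for H3K9ac at 1.34 (0.88 to 1.82) and for 13HH3-1A5 at 1.06 (0.57 to 1.55). En2 held 148, 114, 62 and 42 tags, with 1.55 (1.05 to 2.08) in the H3K9ac library, 1.28 (0.76 to 1.82) in that of 13HH3-1A5 and 0.26 (-0.33 to 0.86) in that of 7G8. En1, with 87, 66, 41 and 37 tags, was lower at 0.97 (0.40 to 1.57), 0.67 (0.07 to 1.29) and -0.16 (-0.83 to 0.53). All 4 genes were above input for both H3K9ac and 13HH3-1A5, beside 67.3% and 34.6% of all genes for each mark singly.

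The Nkx genes form the largest family, with roles in the ventral neural tube, heart, lung, gut and skeleton, and they covered almost the full range of the 13HH3-1A5 ratio. Among them 7 of 14 were called for H3K9ac and 5 of 14 for 13HH3-1A5, the latter being Nkx6-1, Nkx2-6, Nkx2-9, Nkx2-1 and Nkx2-4. At the TSS shared by most of its transcripts, 7841 bp away, Nkx2-2 would be called for 13HH3-1A5 too, with 1.17 rather than 0.90. Nkx2-9, a floor plate factor, was highest for H3K9ac with 199 tags of H3K9ac, 112 of 13HH3-1A5, 80 of 7G8 and 41 of input, or 2.02 (1.52 to 2.54), 1.29 (0.76 to 1.84) and 0.66 (0.10 to 1.24). Nkx6-1, a factor of motor neuron progenitors and pancreatic beta cells (TSS on chromosome 5 at 102094245), held 103, 120, 35 and 27 tags. Its 13HH3-1A5 ratio was 1.99 (1.38 to 2.65) and its H3K9ac ratio 1.67 (1.05 to 2.34), while 7G8 was 0.07 (-0.70 to 0.85). The 2 antibodies against H3K14ac therefore gave different values at this promoter, as described below. Nkx2-6, a pharyngeal and heart factor, had few tags (39, 49, 41 and 15), and its ratios of 1.12 (0.22 to 2.08), 1.54 (0.69 to 2.49) and 1.15 (0.26 to 2.11) had wide intervals.

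At the low end of the Nkx family, Nkx6-3, a stomach and gut factor, held 68 tags of H3K9ac, 69 of 13HH3-1A5, 30 of 7G8 and 54 of input. Its ratios were 0.07 (-0.47 to 0.61) in the H3K9ac library, 0.19 (-0.34 to 0.73) in that of 13HH3-1A5 and -1.15 (-1.85 to -0.48) in that of 7G8. Acetylation was nevertheless present nearby, since the stretch 2 to 5 kb upstream of its TSS held 114 tags of H3K9ac and 25 of input, a log2 ratio of 1.93 (1.29 to 2.61). Nkx3-2, a skeletal factor, stood at 0.47 (0.00 to 0.96) for H3K9ac and Nkx2-3, a factor of spleen and gut, at 0.48 (0.02 to 0.96), and 13HH3-1A5 at Nkx2-3 was -0.50 (-1.07 to 0.06). The heart factor Nkx2-5 was 0.89 (0.48 to 1.32) for H3K9ac and -0.34 (-0.84 to 0.15) for 7G8. For H3K9ac, Nkx1-1, Nkx1-2, Nkx2-1, Nkx6-2, Nkx2-4 and Nkx2-2 ranged from 0.89 at Nkx1-1 to 1.63 at Nkx2-2.

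The Pax genes encode paired domain factors of the nervous system, eye, kidney, muscle and B cells. Except for Pax4 they lay in a narrow range. H3K9ac was between 0.72 (0.15 to 1.31) at Pax1 and 1.35 (0.88 to 1.84) at Pax2 in 8 of 9, and 6 of 9 were called. Pax2 held 156 tags of H3K9ac, 88 of 13HH3-1A5, 59 of 7G8 and 51 of input. Its 13HH3-1A5 ratio was 0.62, and it was 1.00 at the TSS shared by most of its transcripts, 1343 bp away. 13HH3-1A5 was called at 1 Pax gene, Pax7 (121, 95, 41 and 41 tags), with 1.05 (0.51 to 1.61). Pax6 was the Pax gene above input for 7G8, at 0.76 (0.24 to 1.29). Pax4, an endocrine pancreas factor (TSS on chromosome 6 at 28399353), held 38, 51, 39 and 40 tags, so that H3K9ac was -0.34 (-1.02 to 0.34) and 13HH3-1A5 0.19 (-0.44 to 0.82). Neither mark could be told from input there at this depth. Pax4 also had the fewest CpGs of the 58 genes.

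Among the Lhx genes, which encode LIM homeodomain factors of neurons, limbs and pituitary, 5 of 8 were called for H3K9ac (62.5%, beside 58.2% of all genes) and 0 of 8 for 13HH3-1A5 (beside 16.6% of all genes). Lhx6, a factor of cortical interneurons, had the highest ratio of H3K9ac over input, at 1.19 (0.69 to 1.71). It held 126 tags of H3K9ac, 97 of 13HH3-1A5, 91 of 7G8 and 46 of input, and Lhx4 and Lhx1 held more tags of H3K9ac (147 and 137). Lhx3, a pituitary and motor neuron factor (TSS on chromosome 2 at 26063769), held 53, 35, 20 and 56 tags. It had the lowest ratios of both H3K14ac antibodies and shared the lowest H3K9ac ratio with Pax4, at -0.34 (-0.91 to 0.23) in the H3K9ac library, -0.84 (-1.49 to -0.21) in that of 13HH3-1A5 and -1.79 (-2.60 to -1.03) in that of 7G8, so that both H3K14ac libraries lay below input. Lhx5 was 0.81 (0.35 to 1.28) in the H3K9ac library and -0.12 (-0.66 to 0.43) in that of 13HH3-1A5.

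The Dlx genes, which act in the forebrain, branchial arches and limbs, are arranged in pairs, and the intervals of H3K9ac of the 2 genes of a pair overlapped in each of the 3 pairs. H3K9ac was above input at 6 of 6 (beside 67.3% of all genes) and called at 4 of 6 (beside 58.2%). Dlx2, with 137 tags of H3K9ac, 56 of 13HH3-1A5, 38 of 7G8 and 30 of input, was highest at 1.93 (1.35 to 2.55), and its partner Dlx1, 18641 bp away, was 1.19 (0.71 to 1.69). Dlx5, with 77, 58, 48 and 41 tags, was lowest at 0.65 (0.08 to 1.23), and its partner Dlx6, 18751 bp away, was 0.91 (0.40 to 1.44). Dlx3 and Dlx4 were 1.60 (1.14 to 2.07) and 1.05 (0.60 to 1.52). 13HH3-1A5 was called at 0 of the 6 Dlx genes (beside 16.6% of all genes), with a range from 0.31 to 0.76. Over the full window 7G8 was above input at 0 of 6 (beside 33.8% of all genes), but at Dlx3 it was above input in the 2 kb downstream alone. The 3 Msx genes, which act in limb, tooth and skull growth, had H3K9ac above input at 3 of 3 (beside 67.3% of all genes). It ran from 0.89 (0.45 to 1.35) at Msx1 to 1.36 (0.93 to 1.82) at Msx3, which held 179, 81, 82 and 58 tags. Over the full window 13HH3-1A5 was above input at 0 of 3 (beside 34.6% of all genes), with -0.12 (-0.65 to 0.42) at Msx1. In the 2 kb downstream of the TSS alone, it was above input at Msx2 and Msx3.

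The relation of H3K14ac to H3K9ac was then compared gene by gene. The ratio of 2 different antibodies has no absolute meaning, but it can be compared between genes. The log2 ratio of 13HH3-1A5 to H3K9ac had a median of -0.52 at the 58 genes and of -0.95 over all genes. It was at most -1 at 7 of the 58 genes (12.1%), beside 48.4% of the 20266 genes that also had at least 10 tags of H3K9ac. It was at least 1 at 0 of the 58 genes, beside 1.88% of all genes. Its interval lay below 0 at 30 of the 58 genes (51.7%), beside 64.4% of all genes. The 7 genes were Six5 at -1.87 (-2.29 to -1.47), Six4 at -1.53 (-1.96 to -1.13), Otx2 at -1.26 (-1.63 to -0.89), Irx6 at -1.22 (-1.70 to -0.76), Dlx2 at -1.19 (-1.67 to -0.73), Msx3 at -1.04 (-1.44 to -0.66) and Msx1 at -1.01 (-1.46 to -0.57). At the other end stood Pax4 at 0.52 (-0.11 to 1.17), Nkx2-6 at 0.43 (-0.21 to 1.07), Nkx6-1 at 0.32 (-0.07 to 0.71), Emx2 at 0.20 (-0.21 to 0.61) and Nkx6-3 at 0.12 (-0.38 to 0.63). With the other H3K14ac antibody this contrast was not seen against all genes, but it was seen in the same direction against genes of similar CpG number, as given below. The log2 ratio of 7G8 to H3K9ac had a median of -1.01 at the 58 genes and of -1.09 over all genes, and it was at most -1 at 31 of the 58 genes (53.4%), beside 54.2% of all genes. Its interval lay below 0 at 53 of the 58 genes (91.4%), beside 68.8% of all genes. When the libraries were scaled by their background over the genome instead of their totals, the number with 13HH3-1A5 over H3K9ac at or below -1 was 20 of 58, beside 58.0% of all genes.

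**Figure D3:**
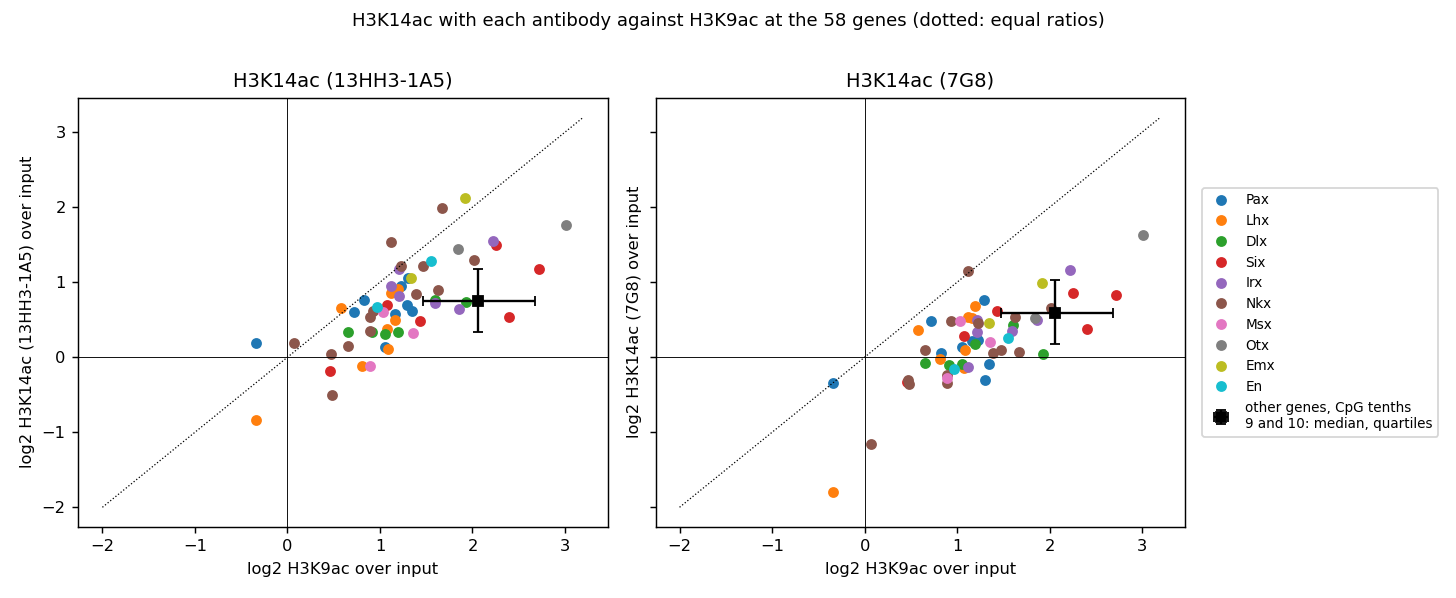
Log2 ratio over input of H3K14ac with 13HH3-1A5 (left) and with 7G8 (right) against that of H3K9ac, for the 58 genes coloured by family, 1 library each. The black square with bars is the median and quartiles of the other genes in the 2 CpG-richest of 10 classes of equal size, and points on the dotted line have equal ratios. For 13HH3-1A5 the points lie mostly left of the square at similar heights, and for 7G8 they lie mostly left of it and below.

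The 2 antibodies against H3K14ac did not give the same picture at these genes. The log2 ratio of 7G8 to 13HH3-1A5 had a median of -0.39 at the 58 genes, of -0.30 at the 39 Hox genes and of -0.02 over all genes. Its interval lay below 0 at 23 of the 58 genes (39.7%), beside 11.4% of all genes, and above 0 at 0 of them, beside 8.27% of all genes. It was at most -1 at 7 of the 58 genes, beside 1.04% of the 20279 genes tested, and at least 1 at 0 of them, beside 1.82% of all genes. Those 7 were Nkx6-1 at -1.92 (-2.50 to -1.36), Pax7 at -1.35 (-1.92 to -0.81), Nkx6-3 at -1.34 (-2.01 to -0.70), Emx2 at -1.13 (-1.63 to -0.64), Nkx2-4 at -1.10 (-1.57 to -0.65), Irx1 at -1.07 (-1.64 to -0.52) and En2 at -1.02 (-1.49 to -0.56). Of the 7, 6 belonged to the CpG-richest of 10 classes of genes of equal size. In that class the interval lay below 0 at 16 of 24 homeobox and Pax genes (66.7%) and at 29.2% of the 2024 other genes. Which antibody is closer to the true level of H3K14ac at these promoters was not tested.

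CpG number was then compared, since the study examined how acetylation goes with CpG content. CpG dinucleotides were counted within 2 kb of the TSS. The 58 genes had a median of 166, from 39 at Pax4 to 309 at Irx5, beside 86.0 over all genes and 139 over the 39 Hox genes. By family, the medians were 151 for Pax, 154 for Lhx, 163 for Nkx, 166 for Dlx, 168 for Msx, 186 for the sine oculis homeobox family, 192 for Otx, 208 for Emx, 224 for Irx and 236 for En. When all genes were ranked by CpG number and split into 10 classes, 24 of the 58 genes fell in the CpG-richest class, which holds genes with 173 to 430 CpGs, and 17 in the next. The CpGs of these genes were spread widely around the TSS. A median of 34.4% of them lay within 500 bp of the TSS, beside 45.8% over all genes. Ranked by CpGs within 500 bp, only 13 of the 58 genes, rather than 41, fell in the top 2 classes.

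In these 2 CpG-richest classes by CpGs within 2 kb, the homeobox and Pax genes had less H3K9ac than the other genes, but about as much H3K14ac with 13HH3-1A5. For H3K9ac the median log2 ratio over input was 1.30 at the 41 genes and 2.06 at the 4055 others, and 78.0% against 90.1% were called. For 13HH3-1A5 the median was 0.76 against 0.75, and 34.1% against 34.9% were called. For 7G8 it was 0.26 against 0.59, and 4.88% against 26.8% were called. These medians come from the same library on each side, so a change of scaling moves both equally. As a result the median log2 ratio of 13HH3-1A5 to H3K9ac was -0.60 at the 41 genes and -1.33 at the others, and that of 7G8 to H3K9ac was -1.13 against -1.49, with 63.4% against 88.3% at or below -1. Each of the 58 genes was also set against the other genes of its own class. For H3K9ac 53 of 58 lay below the median of their class and 41 below its lower quartile. For 7G8 these numbers were 47 and 27, and for 13HH3-1A5 they were 27 and 9, so the genes were split most evenly about the class median with 13HH3-1A5. Of the 17 genes of the lower classes, 8 were in the class just below these, where the medians were 0.99 against 2.06 at the other genes for H3K9ac and 0.48 against 0.60 for 13HH3-1A5. In the next class down, with 3 of the genes, they were 1.03 against 2.03 and 0.11 against 0.53.

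These classes match the genes on CpGs within 2 kb only. At the 41 genes a median of 33.6% of the CpGs lay within 500 bp of the TSS, beside 52.1% at the 4055 others. The comparison was therefore repeated, after the data had been seen, with 10 classes by CpGs within 500 bp. In the top 2 of these, with 13 of the 58 genes and 4083 others, the median for H3K9ac was 1.21 against 2.16, that for 13HH3-1A5 was 0.82 against 0.75, and that for 7G8 was 0.33 against 0.64. Of all 58 genes, 49 lay below the median of their class in the H3K9ac library, 23 in that of 13HH3-1A5 and 46 in that of 7G8.

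**Figure D4:**
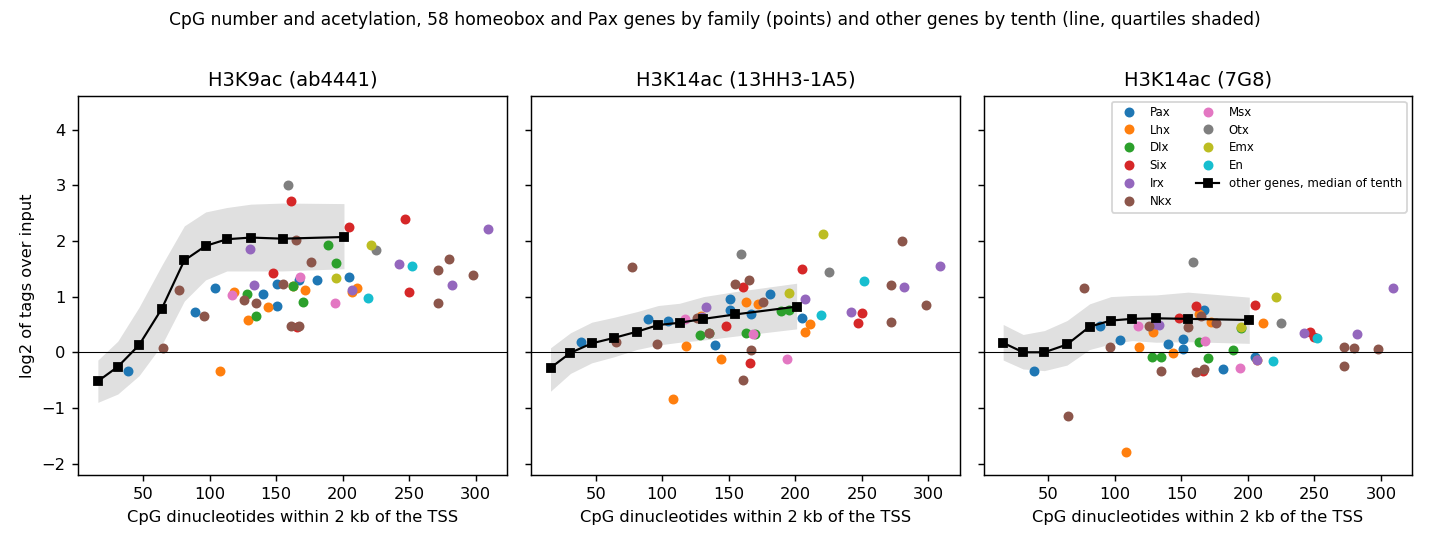
Log2 ratio over input (vertical axis) against the number of CpG dinucleotides within 2 kb of the TSS (horizontal axis) in the 3 ChIP libraries, for the 58 genes coloured by family. The black line joins the medians of the other genes in 10 classes of CpG number and the shading spans their quartiles. Judged by class, 41 of the 58 genes lie below the lower quartile for H3K9ac and 9 for 13HH3-1A5.

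Across the 58 genes, Spearman's rho between CpG number and the log2 ratio over input was 0.51 in the H3K9ac library, 0.45 in that of 13HH3-1A5 and 0.08 in that of 7G8. Over the other genes it was 0.69, 0.48 and 0.34. With CpGs within 500 bp of the TSS, rho over the 58 genes was lower, at 0.29, 0.18 and 0.03. Over the other genes it was not lower, at 0.71, 0.48 and 0.38. Input tags hardly went with CpG number at the 58 genes, with a rho of 0.06. All these points share the same 4 libraries, and genes are not independent replicates, so the coefficients are descriptions. The log2 ratio of H3K9ac and that of 13HH3-1A5 had a rho of 0.73 across the 58 genes, and both share the input counts. Genes with few input tags had the higher ratios, with a rho to input density of -0.47 in the H3K9ac library, -0.60 in that of 13HH3-1A5 and -0.59 in that of 7G8. Input is the denominator of each ratio, so a negative rho is partly built in. Over the other genes it was -0.23, -0.29 and -0.51. The part of input in the ratios of Otx2, Emx2 and Nkx2-6, which had 23, 22 and 15 input tags, was not tested.

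The position of the tags around the TSS was examined by summing the 58 genes in bins of 250 bp. H3K9ac was higher downstream of the TSS than upstream. In the 2 kb downstream it was 2.72 times input (2.56 to 2.88), against 1.98 times (1.84 to 2.12) in the 2 kb upstream. 13HH3-1A5 was 1.91 times input (1.79 to 2.03) downstream and 1.25 times (1.15 to 1.35) upstream. 7G8 was 1.18 times (1.11 to 1.27) and 1.12 times (1.04 to 1.21), which overlap. The highest bin of H3K9ac was 750 to 1000 bp downstream of the TSS at 3.69 times input (3.09 to 4.43), and 13HH3-1A5 was highest in the same bin at 2.72 times (2.26 to 3.29). Among the single genes, the log2 ratio of H3K9ac over input at Nkx6-1 was 1.92 (1.14 to 2.77) downstream and 1.06 (-0.05 to 2.28) upstream. Six5 had the opposite order, with 1.80 (1.18 to 2.48) downstream and 3.14 (2.32 to 4.09) upstream. Irx5, with 1.80 downstream and 2.66 upstream, resembled Six5. The intervals downstream and upstream overlapped at each of these genes, so the order there was not resolved at this depth. By the ratio alone, without its interval, 38 of the 58 genes were higher downstream for H3K9ac.

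A higher ratio downstream was not particular to the 58 genes. Over all other genes H3K9ac was 3.23 times input downstream and 2.66 times upstream, and 13HH3-1A5 was 1.47 and 1.22 times. At the Hox genes H3K9ac was 2.62 and 2.03 times input, and 13HH3-1A5 was 1.76 and 1.30 times. The 4055 other genes of the 2 CpG-richest classes differed in where H3K9ac was highest, although 17 of the 58 genes are not in those classes. Their H3K9ac was highest 250 to 500 bp upstream of the TSS at 6.06 times input (5.93 to 6.18), and it was 4.05 times input in the 2 kb upstream and 4.56 times in the 2 kb downstream. In the 2 kb downstream 13HH3-1A5 was 1.89 times input (1.88 to 1.91) at the other genes, inside the interval of the 58 genes, but in the 2 kb upstream it was 1.48 times (1.46 to 1.49), above the 1.25 times (1.15 to 1.35) of the 58 genes. From 2 to 5 kb downstream 13HH3-1A5 was 1.41 times input (1.34 to 1.50) at the 58 genes and 1.17 times (1.16 to 1.18) at the others. For H3K9ac the order in this stretch was the opposite, with 1.66 times (1.57 to 1.75) at the 58 genes and 2.02 times (2.01 to 2.04) at the others. In that stretch 20 of the 58 genes had an interval above 0 for 13HH3-1A5 (34.5%), beside 13.5% of the 19804 genes tested there, and 32 had one for H3K9ac (55.2%), beside 38.3%. The 20 genes included Otx2, Six4, Irx5, Irx1, Irx2, Irx4, Nkx2-1, Nkx2-6 and Pax2.

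**Figure D5:**
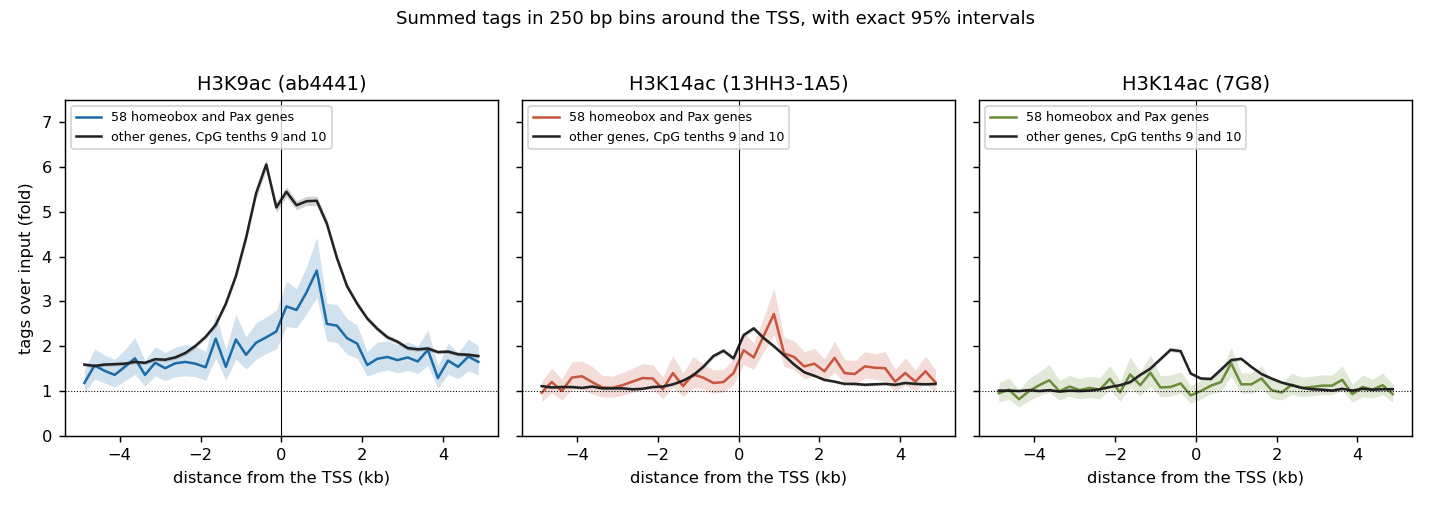
Summed tags over input (vertical axis, fold) in bins of 250 bp within 5 kb of the TSS, with downstream to the right, in the 3 ChIP libraries. Coloured lines are the 58 genes, black lines are the other genes of the 2 CpG-richest classes, and shading is the exact 95% interval. H3K9ac of the 58 genes stays below that of the others near the TSS and peaks downstream, at 3.69 times input, while the lines for 13HH3-1A5 reach 2.72 and 2.40 times input.

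The Hox genes, the most similar set, gave similar counts. Of 39 Hox genes 64.1% were called for H3K9ac (beside 58.2% of all genes), 20.5% in the 13HH3-1A5 library (beside 16.6%) and 0 in that of 7G8 (beside 17.0%). Their median log2 ratios were 1.26, 0.57 and 0.21, and the median of 13HH3-1A5 over H3K9ac was -0.54. The lower values of 7G8 were also seen at the Hox genes. The interval of 7G8 over 13HH3-1A5 lay below 0 at 25.6% of them, beside 39.7% of the 58 genes and 11.4% of all genes. H3K9ac and 13HH3-1A5 were above input without 7G8 at 33.3% of them, beside 43.1% of the 58 genes and 9.02% of all genes. Farther from the TSS, sums over Hox genes count some tags more than once and hold other promoters, since 9 of 39 Hox genes have the TSS of another gene within 5 kb, beside 2 of the 58 genes. The part of this in the next values was not tested. From 2 to 5 kb downstream, 13HH3-1A5 was 1.15 times input (1.06 to 1.25) at the Hox genes and 1.41 times (1.34 to 1.50) at the 58 genes. From 2 to 5 kb upstream, H3K9ac was 1.89 times input (1.76 to 2.03) at the Hox genes and 1.52 times (1.43 to 1.61) at the 58 genes, while the intervals of 13HH3-1A5 there, 1.27 (1.17 to 1.37) and 1.17 (1.09 to 1.24), overlapped.

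The genes of known protein partners of these factors were compared as well. These 25 genes encode Eya and Dach factors that bind sine oculis homeobox proteins, the LIM adaptors Ldb and Lmo that bind Lhx proteins, Tle corepressors, and the Pbx, Meis and Pknox homeodomain cofactors. H3K9ac was called over input at 18 of 25 (72.0%), beside 69.0% of the 58 genes and 58.2% of all genes. It was called below input at 1, Lmo3, which had -2.10, beside 4.65% of all genes. The median of the 25 genes was 1.65 in the H3K9ac library, 0.46 in that of 13HH3-1A5 and 0.32 in that of 7G8. The highest were the corepressor genes Tle4 at 3.33 and Tle3 at 3.01, beside 3.01 at Otx2, the highest homeobox or Pax gene. 13HH3-1A5 over H3K9ac was at most -1 at 15 of 25 (60.0%), beside 12.1% of the 58 homeobox and Pax genes and 48.4% of all genes.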

How the data were processed

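ChIP-seq of mES cells gave 4 libraries, 1 each for H3K9ac, H3K14ac (13HH3-1A5), H3K14ac (7G8) and input. The authors placed reads of 36 bases on mm9 with the ELAND aligner (at most 1 mismatch). What they deposited are tag positions, with a score of 1 on every line. The deposited libraries held 19313927 (input) to 23839094 (7G8) tags. In the 13HH3-1A5 library 3.30% of tags repeated a position and strand, and 0 in the others, so each position was counted once.

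Tags were moved 100 bp towards the fragment centre and counted within 2 kb of the TSS at the 5′ end of each gene (GENCODE vM1), per 10000000 tags. Genes with at least 10 input tags (and 10 tags of the denominator, for ratios between ChIP libraries) were kept. A Hox gene annotated at 2 entries was counted once. Exact 95% intervals treat the tags of 2 libraries as binomial and cover counting error only. With 1 library per antibody no p-value was computed, and a call was a 2-fold difference. The genes named were the highest and lowest for H3K9ac in each family, the 5 highest and 5 lowest for each library over input and for 13HH3-1A5 over H3K9ac, those sharing a window with another gene's TSS, and others in family sentences. The counting was tested on simulated data. Software was Python 3.11.15 with pandas 2.3.3, scipy 1.17.1, matplotlib 3.10.9 and numpy 2.4.6. The genes and lists were chosen with earlier results of these data known. Single values of 2 of the 58 genes are not reported here, and both stay in the counts and medians.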

Additional observations from a re-analysis of the deposited data

How the results depend on the processing

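Of 33 alternative values of counts and of the profile, 31 stayed close to the reported value (within 1.5 times for counts). Of 28 alternative medians, 22 moved by less than the counting error of the 58 genes' summed tags, which is 0.05 to 0.07 (log2) on each side. Some alternatives of both kinds could not move, so these counts overstate how stable the values are. All 58 genes had at least 10 input tags, so a minimum of 1 input tag left their values unchanged. Counting repeated tags could not change H3K9ac or 7G8 over input, since those libraries and input held 0 repeats. Scaling by the median ratio to input over 10 kb bins gave medians of 1.53 for H3K9ac, 0.73 for 13HH3-1A5 and -0.80 for 13HH3-1A5 over H3K9ac, where all genes had 1.69, 0.43 and -1.23. A window of 1 kb on each side gave 1.35, 0.73 and -0.60, where all genes had 1.72, 0.52 and -1.18. With CpGs counted within 500 bp of the TSS, 13 of the 58 genes rather than 41 lay in the 2 CpG-richest classes. With the scaling by 10 kb bins, 20 rather than 7 genes had 13HH3-1A5 at most -1 (log2) relative to H3K9ac, beside 58.0% rather than 48.4% of all genes, since this scaling shifts the log2 ratio over input by 0.35 for H3K9ac and 0.07 for 13HH3-1A5. With the TSS shared by most transcripts, an alternative added after seeing the data, the H3K9ac profile was highest in the same bin, at 3.62 times input. No paired analysis was possible because each antibody had 1 library, and for the same reason no replicate could be left out. Depth limits single genes most where input is low, as at Nkx2-6 with 15 input tags.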
